A study of Mus musculus with 12 samples.

Results

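Frzb, Mybpc1, Apod, Sostdc1 and Prss56 are genes used as markers of olfactory ensheathing glia. They were taken by symbol, 1 probe set per gene, and make up 5 of the 19938 genes measured with a single symbol. Each is read by 1 probe set, numbered 10484307 for Frzb, 10371627 for Mybpc1, 10439009 for Apod, 10395389 for Sostdc1 and 10348144 for Prss56. The values come from the hippocampus and the olfactory bulb of adult C57BL/6 mice, either wild type or lacking RasGRF2, an exchange factor that activates Ras and Rac proteins. The 12 samples of total RNA, each on its own 1-colour array, form 4 groups of 3, named here wild-type bulb, knockout bulb, wild-type hippocampus and knockout hippocampus. Bulb and hippocampus came from the same 6 animals, 3 of each genotype. Replicates 1 to 3 are wild type and 4 to 6 are knockout. All mice lived in conventional housing and had met common pathogens, and no treatment is labelled. The labels do not state how the RasGRF2 allele was made or whether the mice were littermates.

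Olfactory ensheathing glia wrap the axons of olfactory sensory neurons on their way from the nasal lining into the outer layer of the olfactory bulb. They come from the neural crest, depend on the transcription factor Sox10, and share genes with Schwann cells. The hippocampus holds no olfactory nerve layer, so a transcript made chiefly by these cells would be read there mostly from other cell types. Frzb (also Sfrp3) is a secreted protein that binds Wnt ligands. Sostdc1 (also Wise) is a secreted antagonist of Wnt and BMP signals and is also known from choroid plexus. Apod is a lipocalin that carries small lipids and is also made by oligodendrocytes and by meningeal and perivascular fibroblasts. Mybpc1 is the slow myosin binding protein C of skeletal muscle, and Prss56 is a trypsin-like serine protease known from eye development and from neural stem cells.

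Values are RMA log2 intensities, so a difference of 1 is a doubling. The medians of the arrays over the 19938 genes lay between 7.20 and 7.34. Rasgrf2 itself differed by -0.58 in knockout hippocampus (limma adjusted p = 0.00197) and by -0.14 in knockout bulb, which did not pass (adjusted p = 0.532). Wild-type hippocampus replicate 1 stood apart in genes of the meninges. Its 12 meningeal and fibroblast markers averaged 8.24, against 7.41 to 7.78 in the other 5 hippocampal arrays. Its choroid plexus markers had the highest mean too, 6.83, but knockout hippocampus replicate 5 was close at 6.77. Wild-type bulb replicate 1 had the highest mean of 9 olfactory sensory neuron and mucosa markers, 7.81 against 7.11 to 7.34 in the other 5 bulb arrays. The tissues otherwise followed their labels in that list, since the hippocampal arrays lay between 6.37 and 6.61. With 3 arrays a group, the number of arrays limits the precision of every value below.

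Promoters of the 3 members that were higher in the bulb are shown because the Sox10-dependent identity of ensheathing glia makes their upstream sequence of interest. The RefSeq promoter table (GRCm38.p6) held 4 of the 5 members, all but Sostdc1. The 250 bases before the transcript start of Frzb lie on the minus strand at chr2:80447397-80447646, and those of Apod on the minus strand at chr16:31314809-31315058. For Mybpc1 the 173 bases that lie outside every annotated transcript are shown, on the minus strand at chr10:88605230-88605402. Each runs 5′ to 3′, and capitals mark a match to a word searched.
Frzb: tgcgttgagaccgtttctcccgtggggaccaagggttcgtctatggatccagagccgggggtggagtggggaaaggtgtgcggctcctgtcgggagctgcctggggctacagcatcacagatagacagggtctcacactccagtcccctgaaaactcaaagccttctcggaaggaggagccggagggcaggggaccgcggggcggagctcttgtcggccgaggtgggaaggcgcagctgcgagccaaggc
Apod: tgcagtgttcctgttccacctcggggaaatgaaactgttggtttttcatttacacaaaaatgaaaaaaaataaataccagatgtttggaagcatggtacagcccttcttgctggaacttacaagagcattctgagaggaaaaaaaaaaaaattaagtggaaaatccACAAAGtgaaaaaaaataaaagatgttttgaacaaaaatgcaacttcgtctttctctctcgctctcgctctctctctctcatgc
Mybpc1: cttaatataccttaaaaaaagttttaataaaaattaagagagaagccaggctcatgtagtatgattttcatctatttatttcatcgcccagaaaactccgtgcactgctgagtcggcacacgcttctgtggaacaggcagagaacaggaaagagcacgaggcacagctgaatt

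The words searched on both strands of the 250 bases were ACAAAG and ACAATG, which SOX factors can bind, and TATAAA, a form of the TATA box. ACAAAG occurred once, in Apod, starting 84 bases before the transcript start, and overlaps no other match. It is held by 16.5% of 32851 mouse promoter windows of the same length, ACAATG by 10.7% and TATAAA by 12.4%. Frzb, Mybpc1 and Prss56 held none of the 3 words in this window. The window of Frzb was rich in G and C, at 64.4%, that of Mybpc1 held 46.4% and that of Apod 36.4%.

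Frzb, Mybpc1 and Apod were higher in the bulb than in the hippocampus, by 2.19-fold to 2.81-fold over both genotypes, Sostdc1 was lower in the bulb, and Prss56 lay at nearly the same level in both tissues. Of the 5 members, 3 were higher and 1 was lower in wild-type bulb past a limma adjusted p of 0.05, while 40.9% of all genes passed, 23.4% higher and 17.5% lower. In knockout the split was again 3 higher and 1 lower, where 39.1% of all genes passed, 19.9% higher and 19.2% lower. Groups without overlap were found for 3 members higher and 1 lower in wild-type bulb (30.1% and 20.8% of all genes) and for 3 higher and 2 lower in knockout bulb (24.7% and 24.2%). The median difference of the members was 1.15 in wild type and 1.13 in knockout, and over all genes it was 0.071 and -0.013. The arrays read whole tissue, so fewer cells of a type and less RNA per cell cannot be told apart. Set against the marker label, Frzb, Mybpc1 and Apod were higher in the tissue that holds the olfactory nerve layer, while the levels of Sostdc1 went against it. Prss56 passed in neither genotype. Its values, 6.37 to 6.77, all lay below the medians of the arrays, so a difference at this low signal could be missed.

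**Figure D1:**
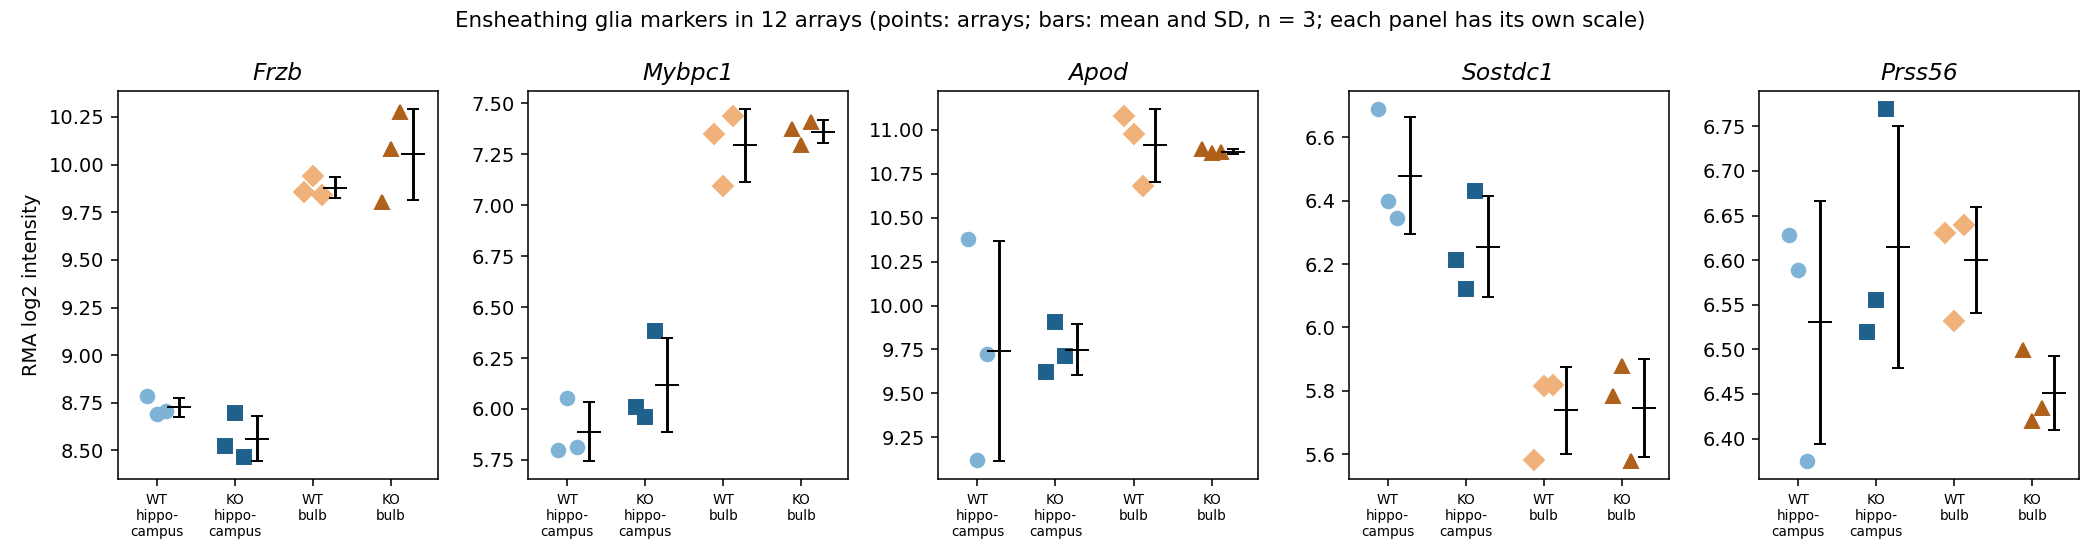
RMA log2 intensity (vertical axes, each panel on its own scale) of the 5 markers in 3 arrays per group, with the mean and SD beside the points. All bulb arrays lie above all hippocampal arrays for Frzb, Mybpc1 and Apod and below them for Sostdc1, and Prss56 spans only 6.37 to 6.77.

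Frzb read 9.86, 9.94 and 9.84 in wild-type bulb and 9.80, 10.08 and 10.28 in knockout bulb. In hippocampus it read 8.78, 8.69 and 8.71 in wild type and 8.52, 8.69 and 8.47 in knockout. The 6 bulb arrays thus all lay more than 1 log2 unit above the 6 hippocampal arrays. The difference between the tissues was 1.15 in wild type (SE 0.101, 95% interval 0.94 to 1.37, limma adjusted p = 2.34e-07) and 1.49 in knockout (SE 0.101, 95% interval 1.28 to 1.71, limma adjusted p = 1.28e-08). In order of level the groups ran from knockout bulb through wild-type bulb and wild-type hippocampus to knockout hippocampus, and neighbours within a tissue did not pass the test.

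Mybpc1 read 7.35, 7.09 and 7.44 in wild-type bulb and 7.37, 7.30 and 7.41 in knockout bulb, close to the medians of the arrays. In hippocampus it read 5.80, 6.05 and 5.81 in wild type and 6.01, 5.96 and 6.38 in knockout, below those medians. The groups of the tissues did not overlap. The difference was 1.40 in wild type (SE 0.115, adjusted p = 1.09e-07), or 2.65-fold, and 1.24 in knockout (SE 0.115, adjusted p = 4.08e-07), or 2.37-fold. Mybpc1 is known mainly from muscle, so other muscle genes were examined. Of 10 myosin binding protein and striated muscle genes, 1 was higher and 1 lower in wild-type bulb, Actn2, the alpha-actinin 2 gene that neurons also express, by 0.66 and Mybph by -0.28 (past the threshold in 10 of 21 alternatives). In knockout bulb 2 were higher and 3 lower, with Myl1, a myosin light chain, at 0.55 and Mybph at -0.62.

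Apod read 11.08, 10.98 and 10.68 in wild-type bulb and 10.89, 10.87 and 10.87 in knockout bulb. In knockout hippocampus it read 9.62, 9.91 and 9.72. The wild-type hippocampal arrays, at 10.38, 9.12 and 9.72, spread more widely than any other group of a member (SD 0.63, against 0.013 in knockout bulb). Even so the highest hippocampal value lay under the lowest bulb value. The difference was 1.17 in wild type (SE 0.212, adjusted p = 0.000371) and 1.13 in knockout (SE 0.212, adjusted p = 0.000507). Without wild-type hippocampus replicate 1 the wild-type difference was 1.49, and without replicate 2 it was 0.86, both past the threshold.

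Sostdc1 went the other way. It read 5.58, 5.81 and 5.82 in wild-type bulb and 5.78, 5.88 and 5.58 in knockout bulb, against 6.69, 6.40 and 6.35 in wild-type and 6.21, 6.12 and 6.43 in knockout hippocampus. Every hippocampal array lay above every bulb array, and all 12 values lay below the medians of the arrays. The difference was -0.74 in wild type (SE 0.112, adjusted p = 6.87e-05), or 1.67-fold lower in bulb, and -0.51 in knockout (SE 0.112, adjusted p = 0.00179), or 1.42-fold lower. Choroid plexus is a tissue where Sostdc1 is known to be made, and its markers gave no single direction. Their log2 summed intensity, which the brightest genes carry, ran from 10.1 to 11.9 in wild-type and from 10.6 to 11.4 in knockout hippocampus, and from 9.82 to 10.3 over all bulb arrays. Their mean log2 level was 6.83, 6.44 and 6.41 in wild-type hippocampus and 6.47 to 6.50 in wild-type bulb, so 2 of the 3 hippocampal arrays lay below every wild-type bulb array. In knockout it was 6.59 to 6.77 in hippocampus and 6.29 to 6.50 in bulb. Of 9 choroid plexus genes measured, 1 was higher and 1 lower in wild-type bulb (median 0.17) and 1 higher and 3 lower in knockout bulb (median -0.054). Their part in the Sostdc1 difference was not tested.

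Prss56 read 6.63, 6.53 and 6.64 in wild-type bulb and 6.63, 6.59 and 6.37 in wild-type hippocampus, groups that overlapped. The difference was 0.070 (SE 0.084, 95% interval -0.11 to 0.25, adjusted p = 0.539). In knockout it read 6.50, 6.42 and 6.43 in bulb and 6.52, 6.56 and 6.77 in hippocampus. These groups did not overlap, but the difference of -0.16 (SE 0.084, 95% interval -0.34 to 0.016) did not pass (adjusted p = 0.144). Every value of Prss56 lay below the medians of the arrays. Among 9 other Prss protease genes, Prss23 was higher in bulb by 1.08 in wild type and 1.14 in knockout, and Prss35 was lower, with differences of -0.44 and -0.43. In all 2 of the 9 were higher and 1 lower in wild-type bulb, and 1 higher and 2 lower in knockout bulb.

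Differences were also taken within animals. Tissues were joined by the animal code in the labels, which pairs wild-type bulb replicate 1 with hippocampus replicate 2 and bulb replicate 2 with hippocampus replicate 1. Frzb was higher in the bulb of each of the 6 animals, by 1.17, 1.16 and 1.13 in wild type and 1.28, 1.38 and 1.81 in knockout. For Mybpc1 these differences were 1.29, 1.30 and 1.63 in wild type and 1.36, 1.34 and 1.03 in knockout. Apod was higher in each bulb too, by 1.95, 0.60 and 0.96 in wild type and 1.27, 0.96 and 1.16 in knockout. Joined by the number in the title instead, the wild-type differences of Apod were 0.70, 1.85 and 0.96. Sostdc1 was lower in each bulb, with differences from -0.87 to -0.24, while for Prss56 they ran from -0.34 to 0.26 and took both signs. With the animal as a block the same number of members passed, 4 in each genotype.

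**Figure D2:**
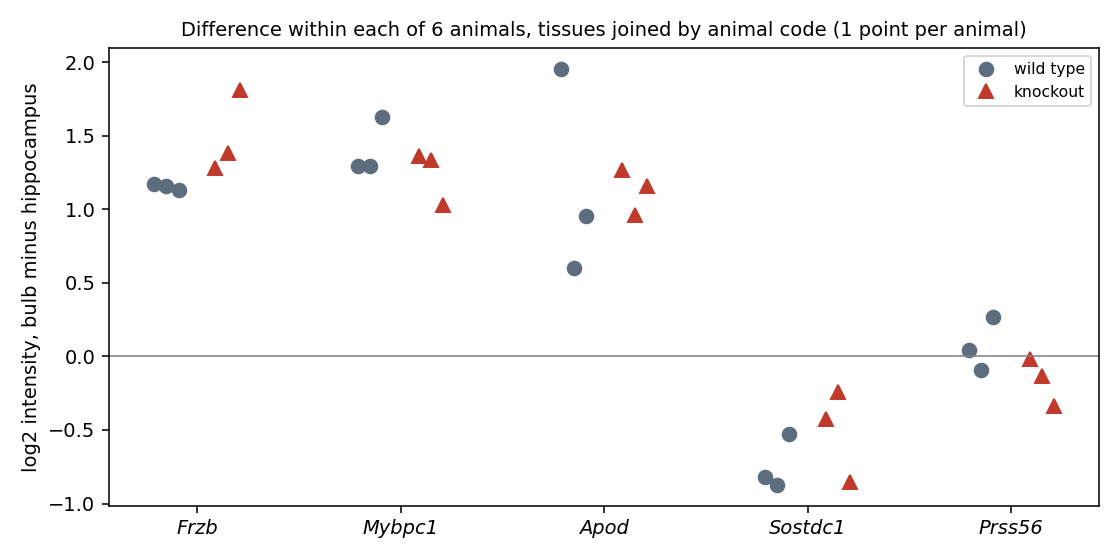
Difference in log2 intensity between bulb and hippocampus (vertical axis) within each of 6 animals for the 5 markers (horizontal axis), with tissues joined by animal code and 1 point per animal. Frzb, Mybpc1 and Apod lie above 0 in all 6 animals, Sostdc1 lies below 0 in all 6, and Prss56 lies on both sides.

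Other genes of ensheathing glia that were not among the 5 were examined as a list, of which 11 were measured with a single symbol. In wild type 8 of the 11 were higher and 2 were lower in bulb, with a median difference of 0.69. In knockout 8 were higher and 3 lower, with a median of 0.40. Fabp7, a brain fatty acid binding protein of radial glia and ensheathing glia, was higher by 1.87 in wild type (adjusted p = 6.50e-11) and 1.92 in knockout. Erbb3, the neuregulin receptor of Schwann cell lineages, was higher by 1.50 and 1.08. Vim, an intermediate filament, was higher by 0.95 and 0.89, and Npy, a neuropeptide that ensheathing glia make beside many neurons, by 0.91 and 0.53.

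Sox10 was higher in bulb by 0.69 in wild type (SE 0.084, adjusted p = 7.78e-06) and 0.40 in knockout (SE 0.084, adjusted p = 0.00133). Its bulb arrays read 8.32, 8.33 and 8.15 in wild type and 8.06, 8.03 and 8.14 in knockout, all above the hippocampal arrays, which spanned 7.53 to 7.86. Foxd3, a neural crest factor, was higher by 0.75 and 0.29, Ednrb, an endothelin receptor, by 0.54 and 0.82, and Ngfr, the low-affinity neurotrophin receptor, by 0.35 and 0.27. Matn2, an extracellular matrilin, was lower (-0.79 and -1.28), and so was S100b, which astrocytes make as well (-0.24 and -0.43). Gfap did not pass in wild type (-0.25, adjusted p = 0.119) and was lower in knockout bulb (-0.49). Several of these genes are also made by oligodendrocyte precursors (Sox10), astrocytes (Fabp7, Ednrb, Gfap) or blood vessels (Vim, Ednrb).

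**Figure D3:**
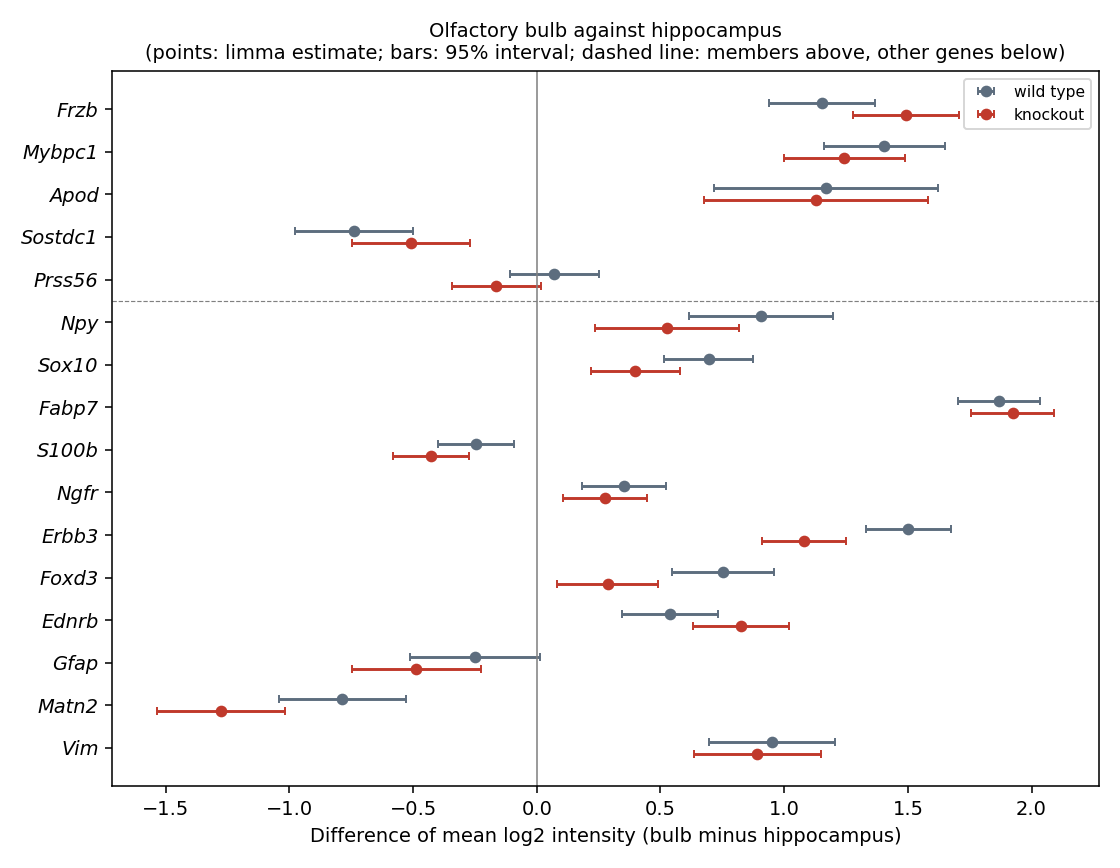
Difference of mean log2 intensity between bulb and hippocampus (horizontal axis) for the 5 markers, above the dashed line, and 11 other ensheathing glia genes, in wild type and knockout, with 95% intervals. Fabp7, Erbb3, Mybpc1, Frzb and Apod lie farthest to the right, and Matn2 and Sostdc1 farthest to the left.

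Other cell types that share genes with ensheathing glia were examined in the same comparison. Of 10 oligodendrocyte and myelin genes, which include no member, 0 were higher and 4 lower in wild-type bulb and 0 higher and 9 lower in knockout bulb (limma), with medians of -0.16 and -0.45. Their mean level was 8.78 to 8.96 in wild-type hippocampus and 8.88, 9.15 and 9.30 in knockout hippocampus replicates 4, 5 and 6. In bulb it was 8.62 to 8.69 in wild type and 8.48 to 8.62 in knockout. Knockout minus wild type, all 10 lay above 0 in hippocampus (median 0.27) and 7 below 0 in bulb (median -0.093). None of these passed. Mbp, a myelin protein, was lower in bulb (-0.35 and -0.42). Of 10 astrocyte genes 3 were higher and 3 lower in each genotype, and Aqp4, the water channel of astrocyte endfeet, was higher by 0.42 and 0.37. Of 5 Schwann cell genes measured 4 were higher and 1 lower in each genotype, among them Cdh19, a cadherin of Schwann cell precursors, by 1.71 and 1.77 and Pmp22, a peripheral myelin protein, by 0.71 and 0.43 (the latter lost without knockout bulb replicate 4, adjusted p = 0.0647). Sox10 and Mbp are also in this list. Of 12 meningeal and fibroblast genes 3 were higher and 1 lower in each genotype. Omp, the marker of mature olfactory sensory neurons whose axons ensheathing glia wrap, was higher in bulb by 1.81 in wild type and 1.82 in knockout. Its list was mixed: of 9 olfactory sensory neuron and mucosa genes, 4 were higher and 3 lower in wild-type bulb (median 0.38), and 3 higher and 2 lower in knockout bulb (median -0.064). Adcy3, an adenylyl cyclase of olfactory cilia, was lower in both genotypes (-0.43 and -0.46).

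Frzb and Sostdc1 belong to the secreted inhibitors of Wnt signalling, so the other genes of that group were examined. Of 11 further secreted Wnt antagonists 5 were higher and 1 was lower in wild-type bulb, and 4 higher and 1 lower in knockout bulb. Sfrp1, the relative of Frzb with the largest difference, was higher by 1.67 in wild type and 1.40 in knockout. Sfrp2 was higher by 0.95 and 1.21 and Wif1, a Wnt-binding factor, by 0.59 and 0.51. Dkk3, a member of the Dickkopf family, was lower in bulb (-2.62 and -2.72). Among 16 Wnt receptors and co-receptors 9 were higher and 2 lower in wild-type bulb, and 4 higher and 1 lower in knockout bulb. Fzd6 was higher by 0.38 and 0.28, and Ror1 was lower (-0.35 and -0.68).

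Of 10 Wnt target genes measured, 3 were higher and 1 lower in wild-type bulb, and 2 higher and 0 lower in knockout bulb (limma). Lgr5 stood out with 4.77 in wild type and 4.61 in knockout, and it is also expressed by bulb neurons. Axin2, a feedback inhibitor that reports Wnt signalling in many tissues, was higher by 0.20 in wild type, past the threshold in 16 of 22 alternatives, and differed by 0.0056 in knockout. The wild-type call was lost without wild-type bulb replicate 1 or 2 or wild-type hippocampus replicate 3. Ccnd1, cyclin D1, was lower in wild-type bulb (-0.26) and higher in knockout bulb (0.23), past the threshold in 21 and 19 of 22 alternatives. These calls were lost without wild-type bulb replicate 3, and without knockout bulb replicate 4 or 5 or knockout hippocampus replicate 6. Of 8 secreted BMP antagonists, the group Sostdc1 also belongs to, 4 were higher and 3 lower in both genotypes. Chrdl1 was higher by 1.93 and 1.72 and Grem1 by 0.80 and 0.74, while Chrd (-1.62 and -1.52) and Nbl1 (-1.29 and -1.24) were lower. Of 8 lipocalins and fatty acid binding proteins, relatives of Apod, 2 were higher and 3 lower in wild-type bulb and 3 higher and 3 lower in knockout bulb. Fabp5 was lower (-1.34 and -1.29), and so was Rbp4, the retinol carrier of plasma (-0.96 and -0.94).

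Loss of RasGRF2 moved none of the 5 markers past the test in either tissue. In hippocampus 0 of 5 passed a limma adjusted p of 0.05 and 0 an unadjusted p of 0.05, where 0.256% and 8.91% of all genes passed. The differences, knockout minus wild type, were 0.23 for Mybpc1 (SE 0.115, 95% interval -0.016 to 0.47), 0.084 for Prss56 and 0.0070 for Apod. They were -0.17 for Frzb (SE 0.101, 95% interval -0.38 to 0.050) and -0.22 for Sostdc1 (SE 0.112, 95% interval -0.46 to 0.015). Adjusted p-values ran from 0.590 to 0.994. All 5 pairs of groups overlapped, where 9.39% of all genes were higher and 3.66% lower without overlap. The interval of Apod, -0.45 to 0.46, was the widest, and its sign turned in 5 of 20 alternatives, for example to -0.30 without wild-type hippocampus replicate 2.

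In the bulb, where ensheathing glia reside, 0 of 5 passed and 0 passed unadjusted, against 0.411% and 11.3% of all genes. Frzb differed by 0.17 (SE 0.101, 95% interval -0.041 to 0.39, limma adjusted p = 0.541), Mybpc1 by 0.067, Apod by -0.035 and Sostdc1 by 0.0083. Prss56 differed by -0.15 (SE 0.084, 95% interval -0.33 to 0.030, limma adjusted p = 0.529). It was the only 1 of the 5 whose groups did not overlap in the bulb, at 6.42 to 6.50 in knockout and 6.53 to 6.64 in wild type, and 8.87% of all genes were lower and 8.22% higher in this way. The intervals of Frzb, Mybpc1, Sostdc1 and Prss56 still include differences of up to 0.39 log2 units in size in bulb, so a difference within them was not detectable with 3 arrays a group.

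**Figure D4:**
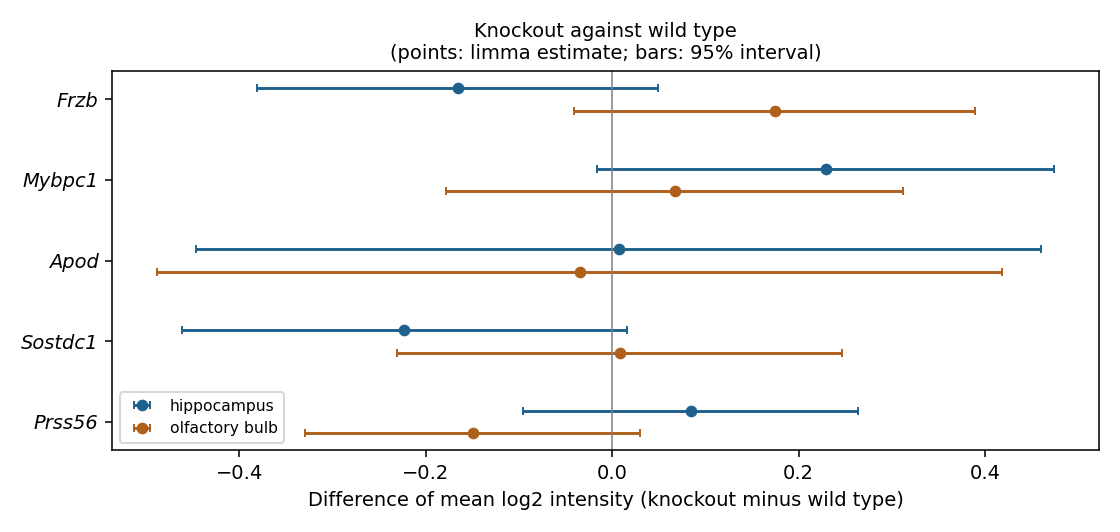
Difference of mean log2 intensity between knockout and wild type (horizontal axis) for the 5 markers in hippocampus and bulb, with 95% intervals. All 10 intervals include 0, and those of Apod are the widest.

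The knockout effect was then compared between the tissues. None of the 5 passed the test of the difference (limma), in which 0.015% of all genes passed, and 1 of 5 passed unadjusted, where 10.7% of all genes did. That gene was Frzb, whose effect was larger in bulb than in hippocampus by 0.34 (SE 0.142, 95% interval 0.036 to 0.64, unadjusted p = 0.0310, adjusted p = 0.434 by limma). Its 3 knockout bulb arrays did not lie together, at 9.80, 10.08 and 10.28, and the lowest fell under all 3 wild-type arrays. For Sostdc1 the effects differed by 0.23, for Prss56 by -0.23, for Mybpc1 by -0.16 and for Apod by -0.042.

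The other ensheathing glia genes did not pass either, 0 of 11 in each tissue (limma). In bulb 10 of the 11 lay below 0 in knockout, with a median of -0.19 against -0.016 over all genes. This was the lowest median of the lists. Some other lists lay low there too, with 7 of 8 oligodendrocyte precursor genes (median -0.16), 10 of 12 meningeal genes (-0.13), 8 of 9 endothelial and mural genes (-0.097) and 13 of 16 Wnt receptors (-0.068) below 0. Others did not, with 4 of 5 mitral and tufted cell genes above 0 (median 0.11). The BMP antagonists (median 0.0096), microglia genes (-0.0031) and astrocyte genes (-0.022) lay on both sides of 0. The mean level of the 11 ensheathing glia genes was 9.05 to 9.24 in wild-type bulb and 8.96 to 8.97 in knockout bulb. The highest of the wild-type values was that of replicate 1, the array that was also highest in the olfactory sensory neuron and mucosa markers. Sox10 differed by -0.19 (SE 0.084, adjusted p = 0.420), Npy by -0.26 and Vim by -0.46 (adjusted p = 0.162). Each had all 3 knockout arrays under all 3 wild-type arrays, as did Matn2 (7.57 to 7.71 against 7.76 to 7.97). The other genes of the list overlapped, and 8.87% of all genes were lower without overlap in bulb. The highest knockout and lowest wild-type array were close for Npy (both 11.01) and Sox10 (8.14 and 8.15). In hippocampus 6 of the 11 lay above 0 (median 0.059, against 0.034 over all genes), and Erbb3 differed by 0.33 (adjusted p = 0.159). Among the Wnt target genes Ccnd1, which also responds to Ras and ERK signalling, fell by 0.94 in hippocampus and by 0.45 in bulb (adjusted p = 1.41e-05 and 0.0133). The hippocampal call held in 20 of 20 alternatives and the bulb call in 15 of 20, with an adjusted p of up to 0.0865. The bulb call was lost without wild-type bulb replicate 1 or 2 or knockout bulb replicate 5 or 6. Ccnd1 was the only 1 of the 10 to pass. No gene passed in either tissue among the 11 Wnt antagonists, the 16 Wnt receptors, the 8 BMP antagonists or the 9 Prss genes (limma).

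Variation from array to array was then described within groups. Deviations from the group means over the 12 arrays correlated with r = 0.71 for Mybpc1 and Prss56 and with r = 0.53 for Sostdc1 and Prss56 and with r between -0.49 and 0.29 for the other 8 pairs. Sostdc1 and Prss56 took opposite signs in the tissues, 0.81 over the 6 hippocampal arrays and -0.21 over the 6 bulb arrays, while Mybpc1 and Prss56 gave 0.70 and 0.83. Frzb, Mybpc1 and Apod, all higher in the bulb, correlated with r = -0.36 (Frzb and Mybpc1), 0.25 (Frzb and Apod) and -0.49 (Mybpc1 and Apod). The arrays share normalization and, by pairs, their animals, so these are descriptions of 12 arrays.

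Apod varied with the markers of several cell types. Its deviations correlated with the mean of the 12 meningeal and fibroblast markers with r = 0.94 over the 12 arrays. Over the 10 arrays left without wild-type hippocampus replicates 1 and 2 it was 0.77. The genes most like Apod were Ptgds (r = 0.99), a lipocalin prostaglandin synthase of the meninges, Kcnj13 (0.99), a potassium channel of choroid plexus, Slc6a20a (0.97), an amino acid transporter of the meninges, the sulfate transporter gene Slc13a4 (0.96) and the complement gene C1qb (0.96). Without the 2 arrays that deviated most these were 0.92, 0.95, 0.77, 0.84 and 0.69. In wild-type hippocampus Ptgds read 12.71, 11.02 and 11.91 and Igf2, a growth factor of the meninges, 9.96, 8.41 and 9.04, the same order of arrays as for Apod. With the 11 other ensheathing glia genes the r of Apod was 0.81, and 0.97 without wild-type bulb replicates 1 and 3. The 2 arrays left out were those where the list itself deviated most. They differ between lists, so the reduced values cannot be ranked against each other. With endothelial and mural cell markers the r of Apod was 0.82, and 0.57 without wild-type hippocampus replicates 1 and 2. With astrocyte markers it was 0.72, and 0.79 without wild-type bulb replicates 2 and 3. With choroid plexus markers it was 0.69, and 0.48 without wild-type hippocampus replicates 1 and 3. Their parts in the level of Apod were not tested.

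**Figure D5:**
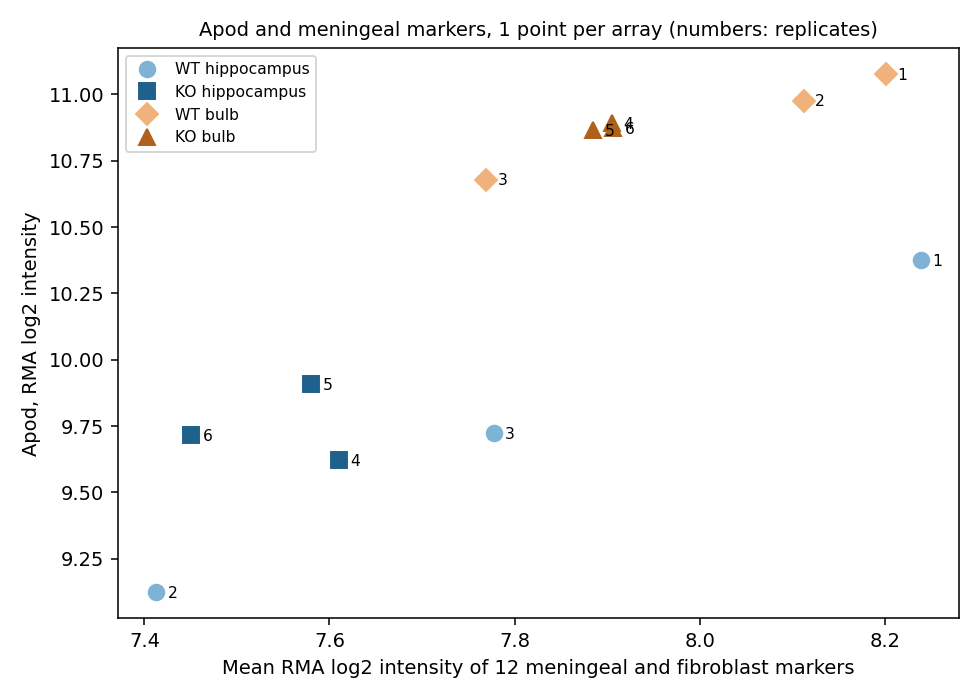
Log2 intensity of Apod (vertical axis) against the mean log2 intensity of 12 meningeal and fibroblast markers (horizontal axis), 1 point per array, with numbers for replicates. Wild-type hippocampus replicate 1 is highest of the hippocampal arrays on both axes and replicate 2 is lowest on both, while the bulb arrays lie above the hippocampal arrays at a like level of the markers.

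The nearest genes of the other members did not include another member or a listed ensheathing glia gene. They were Adam25, Ing1, Rpl6, Ankrd34a and Fam98b for Frzb (r of 0.90 to 0.94), Capns2, Bfsp1, Isx, Spopfm2 and C7 for Mybpc1 (0.95 to 0.96), Tmed11, Cyp2d12, Mmp21, Chtf8 and Pllp for Sostdc1 (0.93 to 0.97), and Serpina6, Tead3, Ces2b, Cfap52 and Fkbp11 for Prss56 (0.93 to 0.97). Without the 2 arrays where the member deviated most, r was 0.71 to 0.90 for Frzb and 0.90 to 0.94 for Mybpc1. For Sostdc1 it was 0.87 to 0.96 and for Prss56 0.89 to 0.95. Like those of Apod, these genes were picked for the highest r among all genes, so a high r alone shows no link. With the 11 other ensheathing glia genes the r was 0.24 for Frzb, -0.34 for Mybpc1, -0.044 for Sostdc1 and 0.10 for Prss56. With the meningeal markers it was 0.24, -0.58, 0.19 and -0.047, and that of Sostdc1 turned to -0.48 without wild-type hippocampus replicates 1 and 2. With the choroid plexus markers it was 0.050, -0.45, 0.55 and 0.21, and that of Sostdc1 was 0.22 without wild-type hippocampus replicates 1 and 3. Sostdc1 had a higher r with microglia markers, 0.63, but 0.36 without wild-type hippocampus replicate 1 and wild-type bulb replicate 1. With oligodendrocyte and myelin markers the r of Sostdc1 was 0.57, and 0.63 without knockout hippocampus replicates 4 and 6. Frzb had an r of 0.75 with the 5 mitral and tufted cell markers, and 0.64 without 2 arrays, the highest of its lists. Lists that mark no cell type gave values of like size. These were -0.72 for Frzb with the Prss genes, and 0.84 for Prss56 and 0.72 for Mybpc1 with the BMP antagonists. What lies behind these values was not tested.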

How the data were processed

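The authors deposited 1 log2 intensity per probe set and array, made with RMA in the oligo package per the submitters' processing notes. RMA corrects background, normalizes quantiles between arrays and compresses differences near background. The notes list neither versions nor a genome build, nor do they say if 1 RMA run held both tissues. Of 35556 probe sets, 21789 had 1 gene symbol, 1621 several, and 12146 were unlisted. The brightest probe set stood for each of 19938 genes, with no filter on signal.

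One limma 3.58.1 model (R 4.3.3, lmFit and eBayes at defaults) of the 4 group means over 12 arrays gave every comparison, with Benjamini-Hochberg adjustment over all genes and a threshold of 0.05. The code was tested on simulated data. Figures used matplotlib 3.10.9. The rule named the 5 members, each one's 5 most correlated genes and, from each list, the 6 largest called differences or fewer and as many as 3 others in list order. Examples named outside it, among them Gfap, Igf2 and, for wild type, Ednrb, were chosen after their values were seen. Members and lists were chosen with earlier results of these data known. The lists fixed were those described, with others for oligodendrocyte precursors (of 8, 2 higher and 0 lower in wild-type bulb by limma, 1 and 4 in knockout bulb), endothelium and mural cells (of 9, 4 and 1, then 4 and 0), microglia (of 6, 0 and 4 in both) and mitral and tufted cells (of 5, 4 and 1 in both).

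The same animals gave both tissues. Deviations of an animal's arrays correlated over genes with r from -0.26 to 0.12 when joined by code, and from -0.21 to 0.25 when joined by the number in the title. The title's number joins the tissues differently in wild-type replicates 1 and 2, so blocks were run both ways. Other settings were every probe set, averaged probe sets, only the arrays compared, median centring, quantile normalization, trend and robust moderation, array weights, a filter on low signal and leaving out each array. Replicate arrays differed with an SD of 0.212 to 0.297 over probe sets, so none was a copy. Arrays carry no read depth.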

Additional observations from a re-analysis of the deposited data

How the results depend on the processing

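Frzb, Mybpc1 and Apod stayed higher and Sostdc1 lower in bulb, past the threshold in both genotypes, in every alternative that tested them. With only genes above the median level, 2 members were tested and 2 passed in each genotype. No member passed for genotype or for the difference between tissues in any alternative. Blocks by animal code or title number left 4 members past the threshold in each genotype, and no call of a member changed. Signs turned only for differences that did not pass. Apod in hippocampus was -0.041 after centring, -0.17 with array weights and -0.30 to 0.32 leaving out single arrays. In bulb, leaving out single arrays gave -0.15 to 0.048 for Apod, -0.070 to 0.093 for Sostdc1 and -0.032 to 0.14 for Mybpc1. The difference between tissues for Apod was 0.012 after centring, 0.12 with array weights and -0.36 to 0.27 leaving out single arrays. Prss56 in wild-type bulb against hippocampus was -0.0091 after centring, -0.039 after quantile normalization and -0.0077 to 0.12 leaving out single arrays.

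Over all genes, 51 passed in hippocampus, 125 over every probe set, 28 with only the arrays compared, 336 with array weights and 30 to 56 leaving out single arrays (30 and 33 without hippocampal wild-type array 1 or 3, 32 without knockout array 5). In bulb 82 passed, 36 with only the arrays compared, 136 with trend and robust moderation and 35 to 105 leaving out single arrays (38 and 40 without wild-type replicates 1 and 2, and 41, 50 and 35 without knockout replicates 4, 5 and 6). The difference between tissues called 3 genes, 0 over every probe set, 12 with array weights, 0 with either replicate block and 0 to 4 leaving out single arrays (0 without replicate 4 of either knockout tissue). Centring moved the share of higher calls from 57.3% to 42.6% in wild-type bulb against hippocampus and from 56.9% to 44.4% in hippocampus. It also took the median difference over all genes from 0.071 to -0.0083 and from 0.034 to -0.014. Why the counts moved in the other settings was not tested.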
